A study of Rattus norvegicus with 11 samples.

Results

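The genes of dividing cells were examined in dorsal root ganglia of the rat in 2 separate sets, cell cycle genes and replication-dependent histone genes. The cell cycle set was a list of 36 symbols, of which the deposited table held 34, while Birc5 and Bub1b were not analysed here. The histone set was every symbol in the table beginning with Hist1, Hist2 or Hist3, the names of the chromosomal clusters in which these genes lie. It came to 23 symbols, 17 of Hist1, 3 of Hist2 and 3 of Hist3. Together they were 57 of 16811 rows of the table. Genes were tested where 3 libraries or more reached a value of 10, which all 34 cell cycle genes and 22 of the 23 histone genes did. The histone gene left untested was Hist1h1t, a linker histone known from the testis, whose scaled counts were 2.78, 2.27, 1.56 and 4.61 in Sham, 3.76, 9.0, 6.76 and 3.65 in SNL and 6.28, 3.09 and 7.74 in SNL plus UNC0638.

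The ganglia came from Sprague-Dawley rats in 3 groups. Sham-operated controls (Sham, n = 4) gave ganglia of the right side. Rats of the SNL group (n = 4) underwent spinal nerve ligation, the tying of a nerve that leaves the spine and a common model of nerve injury pain, and gave ganglia of the left side. The third group (SNL plus UNC0638, n = 3) was ligated, gave ganglia of the left side and received UNC0638, an inhibitor of the histone methyltransferases G9a and GLP, after ligation. Side of the body and ligation cannot be told apart, and no group received UNC0638 without ligation, so that each difference linked to UNC0638 was measured in ligated ganglia. The sources used here gave neither dose, time after surgery nor age. The labels do not say that the libraries of a group came from separate animals, and p-values therefore measure the spread between libraries, which may be technical.

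A cell that divides passes from G1 through DNA synthesis in S phase and through G2 to mitosis. D- and E-type cyclins with their kinases release E2F factors from the retinoblastoma proteins, and E2F factors then raise the genes of DNA replication, while the DREAM and MuvB complexes act through CHR elements on the genes of mitosis. Replication-dependent histone genes are transcribed in S phase to package new DNA, and their messages end in a stem-loop bound by Slbp in place of a poly(A) tail. Sensory neurons do not divide, whereas satellite glia, Schwann cells, fibroblasts, endothelial cells and immune cells of an injured ganglion can. The libraries were made from total RNA depleted of ribosomal RNA, a method that does not select for poly(A) tails.

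Values are gene counts scaled by the authors to a common library size, called scaled counts here. They can be compared between libraries for 1 gene, but not between genes, because no gene length enters them. The scaled totals ran from 9450045 to 11347920, with 6127897 to 24367783 reads per library as estimated from the step between low values. SNL plus UNC0638 replicate 1 stood apart: 10 skeletal muscle markers summed to 78133 scaled counts there and to 146 to 557 in the other 10 libraries. On the first principal component of all tested genes (53.8% of the variance) it lay at -9.04, against 41.2 and 44.1 for the other libraries of its group. Sham replicate 3 (-47.8, against -71.0 to -66.0) and SNL replicate 3 (23.2, against 42.0 to 56.7) also lay apart from their groups on it. On the second component (26.49% of the variance) the libraries with UNC0638 lay lowest, at -57.82, -53.61 and -40.76. Sham replicate 3 (-24.43, against 13.25 to 23.22) and SNL replicate 3 (3.455, against 31.75 to 45.69) were shifted the same way. The axis that separates the UNC0638 group thus also sets these replicates apart from their own groups. The cause of this shared shift was not tested.

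Promoter sequences are shown for 5 members that moved with the groups and for 1 that was not called, each with motifs of its set. RefSeq windows on the GRCr8 build, 250 bases before to 50 bases after the annotated start, were found for 24 of 34 cell cycle genes and 19 of 23 histone genes. An E2F motif (TTTCGCGC, TTTGGCGC, TTTCCCGC or TTTGCCGC on either strand) lay in 8 of the 24 cell cycle windows (33.3%), in 3 of the 19 histone windows (15.8%) and in 2.25% of 27457 windows of the same length. The CHR letters TTTGAA on either strand lay in 10 cell cycle windows (41.7%), 10 histone windows (52.6%) and 18.1% of all windows. The histone octamer ATTTGCAT lay in 0 cell cycle windows, in 8 histone windows (42.1%) and in 1.64% of all, and TATAAA in 1 (4.17%), 11 (57.9%) and 14.3%. CCAAT, on either strand, lay in 17 (70.8%), 17 (89.5%) and 37.7%. Octamer and TATAAA letters were also searched on both strands, and none of these motifs contains another. These are matches of letters, not measured binding sites. The 250 bases before the start are given below for the helicase gene Mcm7, the proliferation marker Mki67 and the spindle gene Prc1, with E2F and CHR letters in capitals, since these genes stand for replication, proliferation and mitosis in the results.
Mcm7 (chr12:22163179-22163428, reverse strand): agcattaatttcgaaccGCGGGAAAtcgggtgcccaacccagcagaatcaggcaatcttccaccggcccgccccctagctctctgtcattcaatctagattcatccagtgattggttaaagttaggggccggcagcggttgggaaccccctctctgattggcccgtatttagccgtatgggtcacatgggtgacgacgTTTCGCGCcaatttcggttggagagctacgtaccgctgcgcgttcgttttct
Mki67 (chr1:199952594-199952843, reverse strand): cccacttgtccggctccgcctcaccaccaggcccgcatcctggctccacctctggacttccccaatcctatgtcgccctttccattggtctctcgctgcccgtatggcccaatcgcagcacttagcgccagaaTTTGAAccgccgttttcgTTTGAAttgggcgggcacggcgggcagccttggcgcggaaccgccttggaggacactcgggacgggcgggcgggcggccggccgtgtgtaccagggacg
Prc1 (chr1:143659231-143659480, forward strand): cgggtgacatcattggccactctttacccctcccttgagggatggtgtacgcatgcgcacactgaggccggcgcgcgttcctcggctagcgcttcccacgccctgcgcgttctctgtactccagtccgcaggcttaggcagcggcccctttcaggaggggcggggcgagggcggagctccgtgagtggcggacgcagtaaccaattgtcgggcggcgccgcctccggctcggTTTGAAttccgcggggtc

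For the histone set, the windows of Hist1h2aa, Hist1h1b and Hist3h2a follow, with CCAAT, octamer and TATAAA letters in capitals. The Hist1h2aa window is shown because it is shared: Hist1h2ba is the next gene on the opposite strand and starts away from the other end of the same stretch. Hist3h2a likewise lies back to back with Hist3h2bb, and is shown as a member that was not called in any comparison with all libraries. Its window holds the octamer and CCAAT letters that the Hist1h2aa window also holds, and no TATAAA.
Hist1h2aa (chr17:41599673-41599922, reverse strand): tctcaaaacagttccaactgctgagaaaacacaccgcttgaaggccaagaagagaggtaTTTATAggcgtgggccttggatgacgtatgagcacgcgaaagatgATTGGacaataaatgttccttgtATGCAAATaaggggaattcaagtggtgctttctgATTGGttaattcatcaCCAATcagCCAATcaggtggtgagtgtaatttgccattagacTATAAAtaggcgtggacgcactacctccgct
Hist1h1b (chr17:47421625-47421874, forward strand): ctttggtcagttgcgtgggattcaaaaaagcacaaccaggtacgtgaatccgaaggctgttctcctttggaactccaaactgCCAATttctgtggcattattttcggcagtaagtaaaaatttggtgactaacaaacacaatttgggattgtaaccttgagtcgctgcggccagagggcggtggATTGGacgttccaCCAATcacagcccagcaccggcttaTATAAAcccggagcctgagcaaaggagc
Hist3h2a (chr10:44233033-44233282, forward strand): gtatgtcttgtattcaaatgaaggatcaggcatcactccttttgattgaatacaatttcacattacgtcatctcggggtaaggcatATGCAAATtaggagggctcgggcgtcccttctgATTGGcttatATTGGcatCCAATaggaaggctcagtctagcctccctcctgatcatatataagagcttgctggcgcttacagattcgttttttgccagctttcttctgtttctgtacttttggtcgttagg

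**Figure D1:**
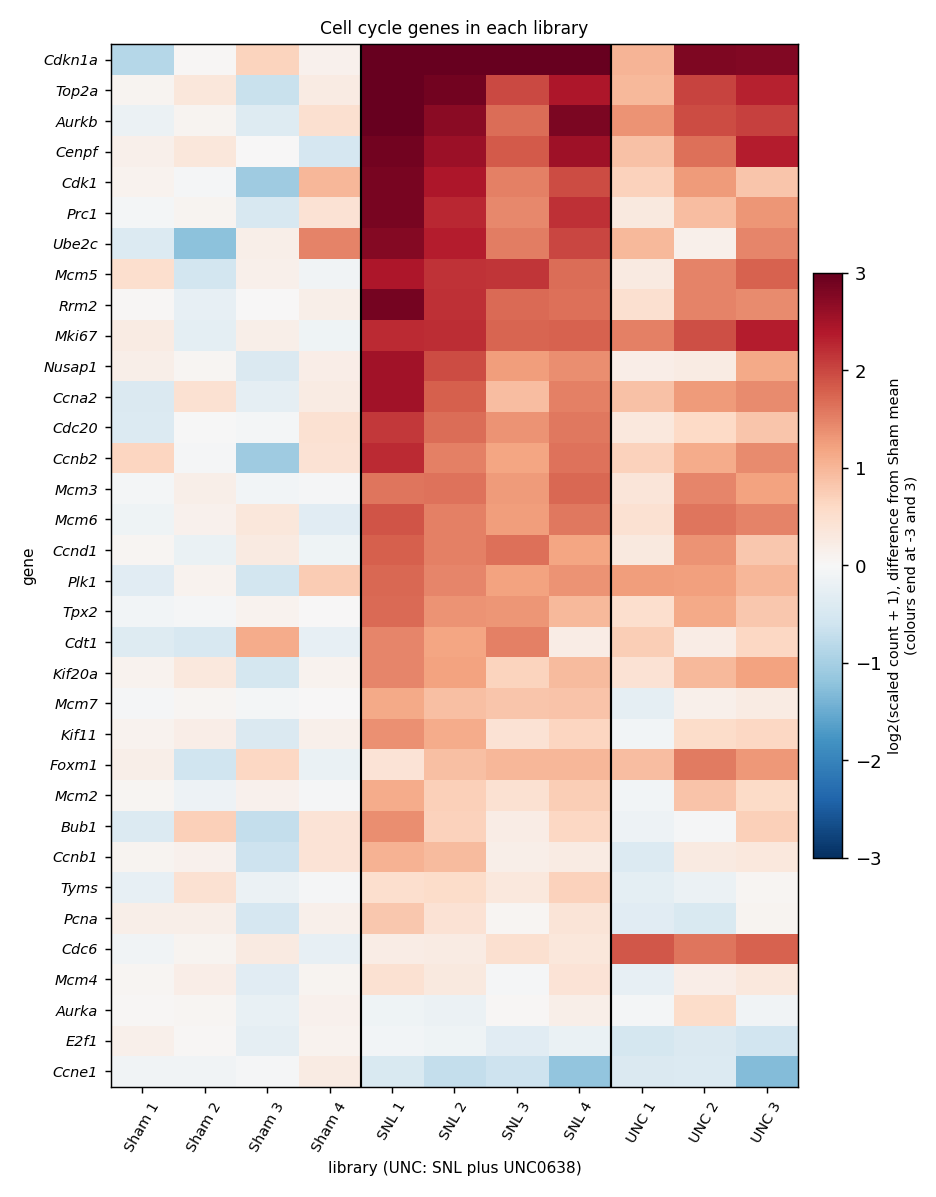
Cell cycle genes (34 rows) in the 11 libraries (columns), coloured by the difference of log2(scaled count + 1) from the mean of Sham, with genes ordered by their SNL mean and colours ending at -3 and 3. The SNL columns are red for all rows but those at the bottom, SNL plus UNC0638 replicate 1 is paler than replicates 2 and 3, and Cdc6 is strongly red in the 3 SNL plus UNC0638 columns only.

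The first comparison asked what ligation changed. With ligation, most of the listed cell cycle genes were higher: 26 of 34 rose and 1, Ccne1, fell. DNA replication genes outside this list are given below and had a median log2 fold change of 0.09. Among all 12085 genes tested, 24.8% were called higher and 23.4% lower in this comparison. The members' median log2 fold change was 1.49, beside -0.00 for all genes tested. Of the 26 genes that rose, Aurkb was under 10 in every Sham library and entered the test only through ligated libraries. In Sham, Ube2c and Plk1 reached 10 only in replicate 4 and Cdt1 only in replicates 3 and 4. These genes thus also needed ligated libraries to be tested. For 23 members each of the 4 SNL libraries lay above all 4 Sham libraries, a separation that was not counted over all tested genes. The 7 that were not called were Ccnb1, Aurka, Bub1, Mcm4, Pcna, Cdc6 and E2f1. Calls are from limma on log2(scaled count + 1) over all 11 libraries, at an adjusted p under 0.05 (Benjamini-Hochberg over all 12085 genes, two-sided), and fold changes are on that scale, which understates those of low genes. Leaving out single libraries gave 23 to 26 higher calls, and 2511 to 3346 over all tested genes. Wherever a call is said below to be lost or gained without certain libraries, each was left out on its own.

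The second comparison asked what UNC0638 changed in ligated ganglia. Of the 34 cell cycle genes, 1 rose (Cdc6) and 9 fell: Ccnd1, Mcm7, Pcna, Tyms, Rrm2, Cdc20, Prc1, Nusap1 and Cdkn1a. Over all tested genes 13.5% were called higher and 14.3% lower. The members' median was -0.57 (all genes 0.01), and 30 of 34 had a value below 0. The count of lower calls depended on single libraries: 2, Cdc20 and Mcm7, were called lower without SNL plus UNC0638 replicate 1, and 3 without SNL replicate 1 and also without SNL replicate 2. The lower calls over all tested genes also dropped in these fits, from 1726 to 1313, 1030 and 1137. The 3 groups' means stood in the order Sham, SNL plus UNC0638, SNL for 27 of 34 genes, an order that was not counted over all tested genes.

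The third comparison set the ligated ganglia with UNC0638 against Sham, and it shares the Sham libraries with the first and the UNC0638 libraries with the second. In it 17 of 34 cell cycle genes were higher and 2, Ccne1 and E2f1, lower, where 25.5% of all tested genes were called higher and 26% lower. The median of the members was 0.86 and that of all genes -0.01. Of the 26 genes that rose with ligation, 16 were also called higher here, and 5 were called lower with UNC0638 and not called against Sham (Cdc20, Mcm7, Nusap1, Prc1 and Tyms). The first and second comparisons share the SNL libraries, so genes picked as high in SNL are favoured to read lower with UNC0638. Neither pattern was counted over all tested genes. Without SNL plus UNC0638 replicate 2 the higher calls numbered 11, and those over all tested genes went from 3083 to 2262.

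The 2 general proliferation markers rose with ligation. Mki67, whose protein coats mitotic chromosomes and marks cycling cells, had scaled counts of 113, 77.3, 106 and 86.1 in Sham, 446, 445, 321 and 326 in SNL and 271, 362 and 489 in SNL plus UNC0638. Every ligated library, with or without UNC0638, lay above every Sham library, and the SNL and SNL plus UNC0638 libraries overlapped. Its mean was 4.02-fold higher in SNL than in Sham (log2 fold change 1.99, SE 0.20, adjusted p = 0.000101) and 3.92-fold higher in SNL plus UNC0638 than in Sham (log2 fold change 1.93, SE 0.22, adjusted p = 0.00011). Between the ligated groups the log2 fold change was -0.06 (SE 0.22, adjusted p = 0.845), and it lay above 0 without SNL replicate 1, SNL replicate 2 or SNL plus UNC0638 replicate 1. Top2a, the topoisomerase that untangles sister chromatids, read 47.3, 56.8, 28 and 53.8 in Sham, 475, 339, 179 and 244 in SNL and 88.8, 186 and 227 in SNL plus UNC0638. All SNL libraries were above all Sham libraries, replicate 1 of SNL plus UNC0638 was the lowest ligated library, and the other 2 fell within or close to the SNL range. Its mean was 6.66-fold higher in SNL than in Sham (log2 fold change 2.66, SE 0.36, adjusted p = 0.000199) and 3.6-fold higher in SNL plus UNC0638 than in Sham (log2 fold change 1.77, SE 0.38, adjusted p = 0.00295). The difference between the ligated groups did not pass the test (log2 fold change -0.90, adjusted p = 0.0993), and it passed without SNL replicate 3 (adjusted p = 0.0389).

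G1 regulators went in both directions. Ccnd1 encodes cyclin D1, which carries growth signals into the cycle, and read 817, 678, 952 and 714 in Sham, 2702, 2239.9, 2484 and 1795 in SNL and 959, 1988 and 1364 in SNL plus UNC0638. All 4 SNL libraries lay above all Sham libraries, and of the SNL plus UNC0638 libraries only replicate 2 reached the SNL range. It rose with ligation (log2 fold change 1.54, SE 0.21, adjusted p = 0.000208), was lower with UNC0638 than with ligation alone (log2 fold change -0.73, SE 0.23, adjusted p = 0.033) and was higher with UNC0638 than in Sham (log2 fold change 0.81, SE 0.23, adjusted p = 0.0109). The second of these calls was lost without SNL replicates 1, 2 and 3 and SNL plus UNC0638 replicates 1 and 3 (adjusted p up to 0.127), and the third without SNL plus UNC0638 replicate 2 (adjusted p up to 0.0575). The second was also lost with only the 2 groups fitted, and the third with a term for the libraries set apart. Here and below, that term marks the whole UNC0638 group together with replicate 3 of Sham and of SNL. It does not single out SNL plus UNC0638 replicate 1. Ccne1, cyclin E1, which acts with Cdk2 at the start of S phase, read 117, 116, 122 and 149 in Sham, 90.3, 75.4, 81.1 and 54.7 in SNL and 92.4, 94.4 and 50.3 in SNL plus UNC0638. It was the 1 cell cycle gene to fall with ligation, with every SNL library below every Sham library (log2 fold change -0.75, SE 0.23, adjusted p = 0.0176), and it was lower than Sham in SNL plus UNC0638 too (log2 fold change -0.71, SE 0.25, adjusted p = 0.0294). The first call was lost without Sham replicate 4 and SNL replicate 4 (adjusted p up to 0.0558) and the other without Sham replicate 4 and SNL plus UNC0638 replicate 3 (adjusted p up to 0.147).

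Cdkn1a encodes p21, an inhibitor of cyclin-dependent kinases that halts the cycle and can be induced in cells that do not divide. Its scaled counts were 16.7, 31.8, 49.9 and 33.8 in Sham, 341, 394, 321 and 332 in SNL and 63.7, 219.7 and 217 in SNL plus UNC0638. It had the highest fitted fold change of the 34 genes with ligation, and no SNL library lay below 321. The mean was 10.5-fold higher in SNL than in Sham (log2 fold change 3.45, SE 0.39, adjusted p = 0.000119) and 5.04-fold higher in SNL plus UNC0638 than in Sham (log2 fold change 2.20, SE 0.42, adjusted p = 0.00149). With UNC0638 it was lower than with ligation alone, at all 3 libraries below all 4 (log2 fold change -1.25, SE 0.42, adjusted p = 0.0459). That call was lost without Sham replicates 2 and 4, SNL replicates 1, 2, 3 and 4 and SNL plus UNC0638 replicate 1 (adjusted p up to 0.16), and the log2 fold change was -0.66 without the last of these libraries. The call was also lost with no filter on the values and with a term for the libraries set apart.

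The transcription factor genes of the set were not called between the ligated groups with all libraries, and E2f1 was called lower with UNC0638 without Sham replicate 3 (adjusted p down to 0.0363). E2f1, the founding E2F factor, read 337, 311, 251 and 327 in Sham, 289, 277, 239 and 264 in SNL and 209.9, 226 and 204 in SNL plus UNC0638. Its SNL plus UNC0638 libraries were all below its Sham libraries (log2 fold change -0.51, SE 0.13, adjusted p = 0.00672), and with ligation alone the log2 fold change was -0.19, adjusted p = 0.205, with a lower call without Sham replicate 3 (adjusted p down to 0.0405). Foxm1, which drives genes of G2 and mitosis, read 32, 18.2, 43.6 and 24.6 in Sham, 37.6, 53.2, 57.1 and 57.5 in SNL and 54.7, 85.1 and 70.9 in SNL plus UNC0638. It was higher than Sham in SNL (log2 fold change 0.82, SE 0.27, adjusted p = 0.0269), where the ranges overlapped, and in SNL plus UNC0638 (log2 fold change 1.27, SE 0.30, adjusted p = 0.0043). The first Foxm1 call was lost without Sham replicates 2 and 4 and SNL replicates 2, 3 and 4 (adjusted p up to 0.0765).

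Of the genes that load the replicative helicase onto origins, Cdt1 rose with ligation and Cdc6 with UNC0638. Cdc6, which works with Cdt1 in G1, read 51.5, 59.1, 67 and 46.9 in Sham, 64.9, 65.6, 78.1 and 71.1 in SNL and 204, 170.2 and 191 in SNL plus UNC0638. Its 3 SNL plus UNC0638 libraries lay at 170.2 or more and its other 8 libraries at 78.1 or less. It was 2.69-fold higher with UNC0638 than with ligation alone (log2 fold change 1.42, SE 0.17, adjusted p = 0.000465) and 3.35-fold higher than in Sham (log2 fold change 1.74, SE 0.17, adjusted p = 5.81e-05), and both calls held with any 1 library left out. With ligation alone it was not called (log2 fold change 0.32, SE 0.16, adjusted p = 0.108), except without Sham replicate 3 (adjusted p down to 0.0425). The log2 fold change against SNL was 1.36 without SNL plus UNC0638 replicate 1, the library with muscle markers. Cdt1, its partner, went from 14.8 ± 9.9 in Sham to 30.8 ± 10.8 in SNL (log2 fold change 1.10, SE 0.40, adjusted p = 0.040) and stood at 19.5 ± 3.61 with UNC0638. That call was lost without Sham replicates 1, 2 and 4, SNL replicates 1, 2 and 3 and SNL plus UNC0638 replicate 3 (adjusted p up to 0.103). In the RefSeq order of genes Cdc6 lies between Wipf2 and Rara, and between the ligated groups Wipf2 had a log2 fold change of 0.85 (adjusted p = 0.30) and Rara of -0.11 (adjusted p = 0.719).

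The MCM genes encode the 6 subunits of the replicative helicase. With ligation 5 of 6 rose (24.8% of all tested genes), with log2 fold changes from 0.76 (Mcm2) to 2.11 (Mcm5), and Mcm4 was not called (log2 fold change 0.28, adjusted p = 0.182). Mcm7, whose promoter with 2 E2F matches is given above, read 169.7, 181, 165 and 175 in Sham, 379, 322, 309 and 312 in SNL and 143, 192 and 206 in SNL plus UNC0638. Every SNL library lay above every other library, and the Sham and SNL plus UNC0638 ranges overlapped. It was 1.91-fold higher in SNL than in Sham (log2 fold change 0.93, SE 0.13, adjusted p = 0.000276), and SNL exceeded SNL plus UNC0638 1.83-fold (log2 fold change -0.88, SE 0.14, adjusted p = 0.00192), a call that held without any 1 library. Against Sham the UNC0638 group differed by 0.04 (adjusted p = 0.811). Mcm7 was the only subunit called lower with UNC0638, while Mcm3, Mcm5 and Mcm6 were called higher in that group than in Sham, Mcm5 not without SNL plus UNC0638 replicates 2 and 3 (adjusted p up to 0.0817). Whether Mcm7 differs from the other subunits in its change was not tested.

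Pcna, the sliding clamp of DNA polymerases, and the nucleotide-supply genes Tyms and Rrm2 were lower in the UNC0638 group than in SNL. Pcna read 465, 462, 288 and 455 in Sham, 720.5, 558, 424 and 538 in SNL and 323, 299 and 431 in SNL plus UNC0638, and its Sham and SNL ranges overlapped. It was not called with ligation (log2 fold change 0.43, SE 0.20, adjusted p = 0.0963), except without SNL replicate 3 (adjusted p down to 0.040), and was called lower with UNC0638 (log2 fold change -0.67, SE 0.22, adjusted p = 0.0381), with 1 SNL library, replicate 3, below the highest UNC0638 library. Tyms, thymidylate synthase, read 72.3, 118, 76.4 and 83.8 in Sham, 122, 126, 107 and 139 in SNL and 70, 75.8 and 90.3 in SNL plus UNC0638. Its 3 SNL plus UNC0638 libraries lay below its 4 SNL libraries, and its Sham libraries overlapped both. It rose with ligation (log2 fold change 0.51, SE 0.18, adjusted p = 0.0333) and was lower with UNC0638 (log2 fold change -0.65, SE 0.19, adjusted p = 0.0285). Rrm2, the regulated subunit of ribonucleotide reductase, went from 55.5 ± 6.53 in Sham to 256 ± 108 in SNL and 128 ± 44.1 with UNC0638 (log2 fold change -0.98, adjusted p = 0.0362, against SNL). These calls against SNL were lost without several single libraries: for Pcna without Sham replicates 1 and 4, SNL replicates 1, 2 and 4 and SNL plus UNC0638 replicates 1 and 2 (adjusted p up to 0.136), for Tyms without SNL replicates 1, 2 and 4 and SNL plus UNC0638 replicates 1 and 2 (adjusted p up to 0.0873) and for Rrm2 without Sham replicate 1, SNL replicates 1 and 2 and SNL plus UNC0638 replicate 1 (adjusted p up to 0.14). The Tyms call with ligation was lost without Sham replicates 1, 3 and 4 and SNL replicates 1, 2 and 4 (adjusted p up to 0.095).

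Of 12 genes of mitosis, 10 rose with ligation, 3 fell with UNC0638 against SNL, and 5 were higher than Sham in the UNC0638 group, with the others not called. The shares of all tested genes called in these directions were 24.8%, 14.3% and 25.5%. Aurkb, the kinase of the chromosomal passenger complex, read 5.56, 6.82, 4.67 and 9.22 in Sham, 72.4, 47.6, 22.5 and 51.1 in SNL and 17.9, 27.8 and 29.7 in SNL plus UNC0638. It was under 10 in every Sham library, from 3 to 12 estimated reads, so it was tested only through its ligated libraries (log2 fold change 2.63, SE 0.36, adjusted p = 0.000204). Cenpf, a kinetochore protein of G2 and mitosis, read 36.2, 40.9, 32.7 and 22.3 in Sham, 247, 196, 117 and 192 in SNL and 60.1, 104 and 169 in SNL plus UNC0638. Ligated and Sham libraries did not overlap for either gene, and both were higher in SNL plus UNC0638 than in Sham (Aurkb log2 fold change 1.79, adjusted p = 0.00269, and Cenpf log2 fold change 1.63, adjusted p = 0.00261). For Cenpf the log2 fold change with ligation was 2.46 (SE 0.32, adjusted p = 0.000176).

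The 3 mitosis genes that fell with UNC0638 serve the spindle and the exit from mitosis. Prc1, which bundles the microtubules of the central spindle, read 44.5, 48.9, 32.7 and 63 in Sham, 339, 224, 127 and 213 in SNL and 56.5, 88.2 and 116 in SNL plus UNC0638. Its SNL plus UNC0638 libraries all lay below its SNL libraries and overlapped those of Sham. SNL exceeded Sham 4.78-fold (log2 fold change 2.19, SE 0.31, adjusted p = 0.000263) and SNL plus UNC0638 2.6-fold (log2 fold change -1.34, SE 0.34, adjusted p = 0.0137). The last call was lost without SNL plus UNC0638 replicate 1 (adjusted p up to 0.0542). It was also lost with the term for the libraries set apart, which marks every library that had UNC0638. Cdc20, the activator of the anaphase-promoting complex, read 18.1, 23.9, 23.4 and 33.8 in Sham, 109, 79.7, 63.1 and 74.8 in SNL and 30.5, 37.1 and 43.9 in SNL plus UNC0638, again with no overlap between the ligated groups. It rose with ligation (log2 fold change 1.69, SE 0.24, adjusted p = 0.000269) and fell with UNC0638 (log2 fold change -1.10, SE 0.26, adjusted p = 0.0107), with that call kept in all 11 fits that left out 1 library and lost with a term for the libraries set apart. Nusap1, a spindle microtubule binder, read 22.3, 20.4, 14 and 22.3 in Sham, 116, 78.4, 48.1 and 52.9 in SNL and 22.4, 23.2 and 43.9 in SNL plus UNC0638 and was called in the same directions (log2 fold change 1.78, adjusted p = 0.000972 with ligation, and log2 fold change -1.26, adjusted p = 0.0202 with UNC0638). Its call with UNC0638 was lost without SNL replicates 1 and 2 and SNL plus UNC0638 replicates 1 and 2 (adjusted p up to 0.0778).

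The other members of the cell cycle set are given by their group values. Cdk1, the kinase of mitotic entry, went from 16.1 ± 9.59 in Sham to 72.1 ± 28.8 in SNL and stood at 28.2 ± 6.48 with UNC0638 (log2 fold change -1.26, adjusted p = 0.0535, against SNL). The latter difference was called without Sham replicates 3 and 4 and SNL replicate 3 (adjusted p down to 0.0191). Its cyclins Ccna2 and Ccnb2 rose with ligation (log2 fold changes 1.69 and 1.64), and Ccnb1 was not called (log2 fold change 0.60, adjusted p = 0.105). Ube2c, Plk1, Tpx2, Kif20a and Kif11 rose by log2 fold changes of 0.89 (Kif11) to 2.16 (Ube2c), none of them called with UNC0638 against SNL. In the Sham libraries Ube2c had only 2, 1, 3 and 17 estimated reads and Plk1 4, 7, 3 and 17. The spindle kinase Aurka ranged from 123 to 210.4 over all 11 libraries and was not called in any comparison. Bub1, of the spindle checkpoint, was not called in any comparison either (log2 fold change 0.74, adjusted p = 0.0992 with ligation), except without Sham replicate 2 (adjusted p down to 0.0435).

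**Figure D2:**
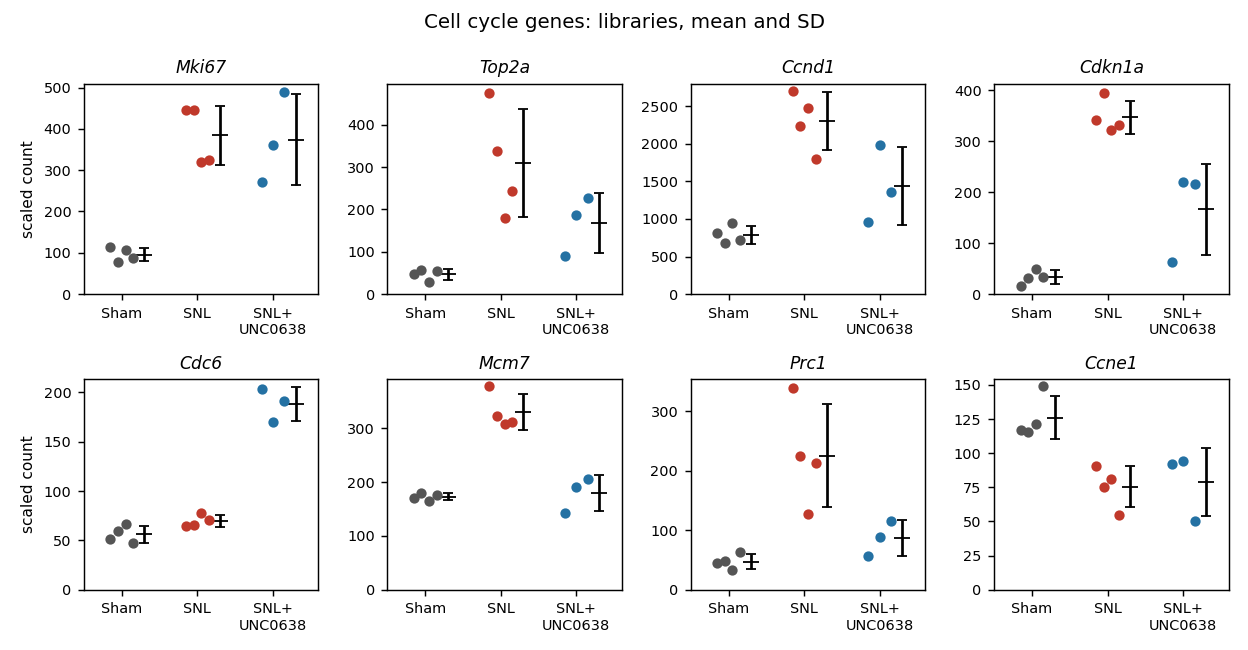
Scaled counts (vertical axes, from 0) of 8 cell cycle genes in each library (points) by group, with mean and SD beside the points. Cdc6 is high in the 3 SNL plus UNC0638 libraries only, Mcm7 in the 4 SNL libraries only, Mki67 in both ligated groups, and Ccne1 is highest in Sham.

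Other genes of the cycle were taken from 4 lists. Of 18 further G1/S regulators in the table (24 listed), 10 rose and 1 fell with ligation (24.8% and 23.4% of all tested genes), 1 rose and 2 fell with UNC0638 against SNL (13.5% and 14.3%), and 9 rose and 2 fell with UNC0638 against Sham (25.5% and 26%). The list's median log2 fold changes in these comparisons were 0.49, 0.11 and 0.61. Cyclin D2 (Ccnd2) went from 122 ± 22.4 in Sham to 527 ± 74.8 in SNL (log2 fold change 2.11, adjusted p = 0.000161) and Myc from 72 ± 23.9 to 197 ± 16.5 (log2 fold change 1.48, adjusted p = 0.000275). Mybl2, which encodes B-Myb, a partner of the MuvB complex, was tested only through its ligated libraries, being under 10 in every Sham library, and rose to 18.2 ± 5.33 and 18.5 ± 4.45 in the ligated groups from 3.76 ± 0.95. Cdk4, the partner of cyclin D, was lower with UNC0638 than in SNL (333 ± 33.1 against 613 ± 57.1, log2 fold change -0.88, adjusted p = 0.00142), as was the MuvB subunit gene Lin54 (log2 fold change -0.46, adjusted p = 0.0358). The repressor-type E2F gene E2f4 was higher (log2 fold change 0.51, adjusted p = 0.0287).

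Of 6 further genes in the table with the symbol of CDK inhibitors (Cdkn), 4 rose with ligation (24.8% of all tested genes) and 3 fell with UNC0638 against SNL (14.3%), with the others not called. The symbol alone placed them in this list. Against Sham, 2 rose and 1 fell with UNC0638 (25.5% and 26%). The list's median log2 fold changes in these comparisons were 1.17, -0.76 and -0.04. Cdkn2b, the p15 gene, went from 169 ± 50.9 to 567 ± 59.2 with ligation and stood at 321 ± 116 with UNC0638 (log2 fold change -0.89, adjusted p = 0.0282, against SNL). Cdkn2c, the p18 gene, stood at 96.9 ± 5.38, 194 ± 43.2 and 94.1 ± 15.8 in the same order (log2 fold change -1.03, adjusted p = 0.00257, against SNL). Cdkn1b, the p27 gene, was not called with ligation and was lower with UNC0638 than in SNL (log2 fold change -0.63, adjusted p = 0.00709) and than in Sham (log2 fold change -0.39, adjusted p = 0.0308). Cdkn3 rose with ligation (log2 fold change 1.44, adjusted p = 0.00237).

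Of 40 other DNA replication genes tested (43 in the table), 11 rose and 6 fell with ligation, where 24.8% and 23.4% of all tested genes did. With UNC0638 against SNL, 2 rose and 6 fell (13.5% and 14.3%), and against Sham 8 rose and 11 fell (25.5% and 26%). The list's median log2 fold changes in these comparisons were 0.09, -0.26 and -0.13. Mcm10, an initiation factor under 10 in every Sham library and tested only through ligated ones, rose with ligation (log2 fold change 2.13, adjusted p = 0.000396), and Rpa1, a subunit of the single-strand DNA binding complex, fell (859.5 ± 77.3 to 392.1 ± 48.9, log2 fold change -1.13, adjusted p = 0.000125). With UNC0638 the 2 genes that rose were Orc1, of the origin recognition complex (8.55 ± 3.41 to 28.8 ± 7.47, log2 fold change 1.69, adjusted p = 0.0244), and Gins2, of the GINS complex of the active helicase (372 ± 29.8 to 550.1 ± 33.2, log2 fold change 0.56, adjusted p = 0.00392). Gmnn, geminin, which inhibits Cdt1, fell (94.9 ± 9.92 to 52.7 ± 3.06, log2 fold change -0.83, adjusted p = 0.00311).

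Of 46 other mitosis genes, 29 rose and 2 fell with ligation (24.8% and 23.4% of all tested genes), 13 fell with UNC0638 against SNL (14.3%) and the others were not called, and 10 rose and 7 fell with UNC0638 against Sham (25.5% and 26%). Median log2 fold changes of the list were 1.09, -0.59 and 0.44 in the same order. The kinesin gene Kif22 went from 89 ± 10.3 to 449 ± 77.5 with ligation and to 137 ± 57.5 with UNC0638 (log2 fold change -1.79, adjusted p = 0.00132, against SNL), and Hmgb2 from 69.4 ± 5.8 to 233 ± 82.3 and 106 ± 23.5 (log2 fold change -1.09, adjusted p = 0.00745). Stmn1, a microtubule destabiliser that neurons also express, fell with UNC0638 (log2 fold change -1.17, adjusted p = 0.00142). Ezh2, a histone methyltransferase of dividing cells, rose with ligation (log2 fold change 2.20, adjusted p = 0.000101) and was higher than Sham with UNC0638 (log2 fold change 1.75, adjusted p = 0.000162), as was the separase gene Espl1 (log2 fold change 1.31, adjusted p = 0.00119). Incenp, the scaffold on which Aurkb works, was lower than Sham in both ligated groups (log2 fold change -0.77, adjusted p = 0.000652 and log2 fold change -0.81, adjusted p = 0.000857).

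**Figure D3:**
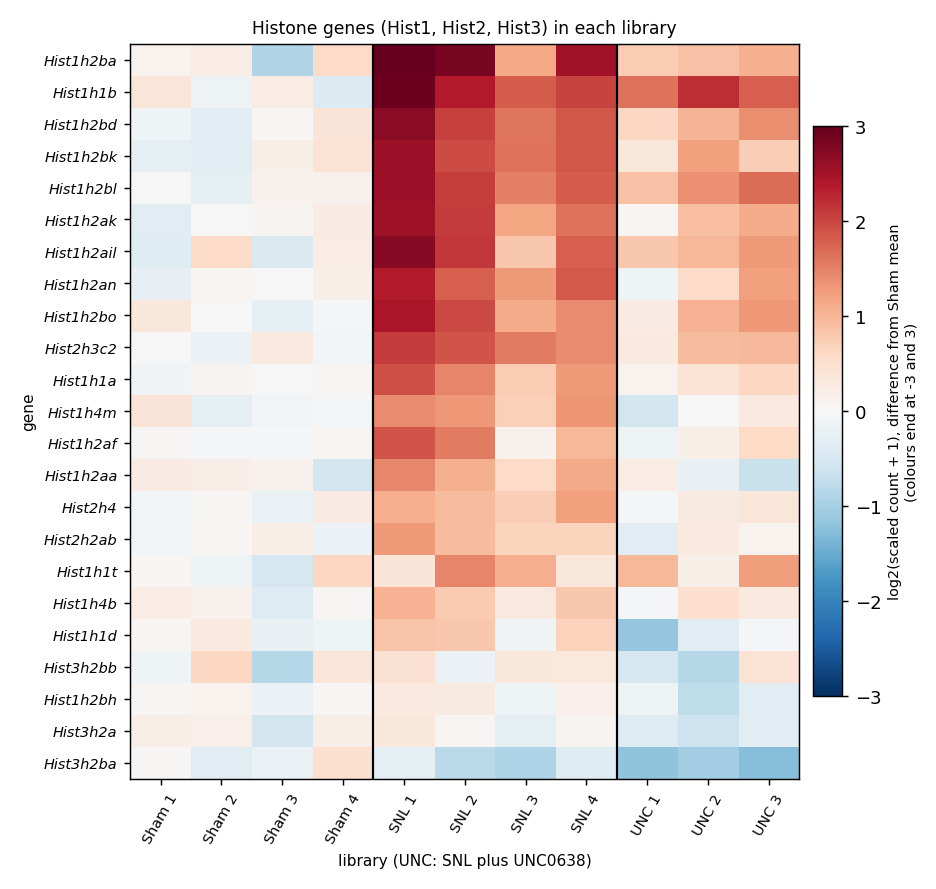
Histone genes (23 rows, Hist1h1t not tested) in the 11 libraries, coloured as for the cell cycle genes by the difference of log2(scaled count + 1) from the Sham mean. SNL replicate 1 is the deepest red of its group, SNL replicate 3 the palest, and the rows of Hist3 and of Hist1h2bh at the bottom show little red.

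Histone genes were also higher with ligation. Of 22 tested, 17 rose and 1, Hist3h2ba, fell, beside the 24.8% and 23.4% of all genes called higher and lower. The 17 include Hist1h2af and Hist1h2ba, which were under 10 in every Sham library and were tested only through libraries in which they were higher. Over the 22 the median log2 fold change was 1.27, and for 17 of the 22 all SNL libraries lay above all Sham libraries. This separation was not counted over all tested genes. With UNC0638 against SNL none rose and 13 fell, beside 13.5% and 14.3% of all genes. The median of the 22 was -0.91 and all 22 had a value below 0, so that limma could call none higher at any p. Limma with voom weights on estimated reads gave 0 higher calls from the same values, which is no separate support. Of the 13, Hist1h2ba reached 10 in SNL libraries only, so that the filter favoured its lower call. Against Sham, the UNC0638 group had 7 higher and 2 lower (25.5% and 26% of all genes), with a median of 0.32. Group means stood in the order Sham, SNL plus UNC0638, SNL for 15 of 22, again without a count over all tested genes. Of the 17 genes that rose with ligation, 11 were called lower with UNC0638, and 8 of these were not called against Sham. Hist1h2ba is among the 11 and the 8. Both comparisons use the same SNL libraries, so genes picked as high in SNL are favoured to read lower with UNC0638. The share of all tested genes with this pattern was not counted.

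These counts varied with single libraries. The 13 lower calls with UNC0638 became 9 without SNL plus UNC0638 replicate 1, 8 without SNL replicate 1 and 20 without SNL replicate 3. Lower calls over all tested genes went from 1726 to 1313, 1030 and 1917 in the same fits. The 7 higher calls against Sham became 3 without SNL plus UNC0638 replicate 2, 2 without its replicate 3 and 4 without SNL replicate 2. Higher calls over all tested genes went from 3083 to 2262, 2289 and 2893 in these fits. SNL replicate 1 was the highest library of its group for 21 of 22 histone genes and for 27 of 34 cell cycle genes, and SNL replicate 3 was the lowest for 19 and 25. SNL plus UNC0638 replicate 1 was the lowest of its group for 17 and 26. Near-identical histone genes can share reads. The sources used here do not give how the authors' counting divided them, and the copy behind the value of a single histone gene is uncertain.

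By cluster, 14 of 16 tested Hist1 genes and 3 of 3 Hist2 genes rose with ligation (24.8% of all tested genes), while of the 3 Hist3 genes 1 fell (23.4%) and the others were not called. With UNC0638 against SNL 10 of the Hist1 genes and 3 of the Hist2 genes fell (14.3%), and the Hist3 genes were not called. The clusters were not tested against each other. By type, 2 of 3 tested linker histones, 5 of 6 H2A genes, 5 of 8 H2B genes, 2 of 2 H3 genes and 3 of 3 H4 genes rose with ligation, beside 24.8% of all tested genes. Hist1h2ail was counted with H3, since the RefSeq gene matched to it also carries the name H3 histone although the symbol reads as H2A, and it was placed there after the values were seen.

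Among linker histones, which bind between nucleosomes, Hist1h1b read 36.2, 25, 32.7 and 20.8 in Sham, 223, 150, 101 and 117 in SNL and 88.8, 135 and 99.3 in SNL plus UNC0638. All 7 ligated libraries lay above all Sham libraries, and the ligated groups overlapped. It was 5.15-fold higher in SNL than in Sham (log2 fold change 2.29, SE 0.27, adjusted p = 0.000125) and 3.75-fold higher in SNL plus UNC0638 (log2 fold change 1.88, SE 0.29, adjusted p = 0.000432). Between the ligated groups the log2 fold change was -0.41, adjusted p = 0.299. Its relatives Hist1h1a (162 ± 53.7 in SNL and 79.3 ± 14.2 with UNC0638, log2 fold change -0.97, adjusted p = 0.0132) and Hist1h1d (45.3 ± 12.4 and 21.4 ± 8.07, log2 fold change -1.07, adjusted p = 0.0294) were lower with UNC0638. The Hist1h1d call was lost without SNL replicates 1, 2 and 4 and SNL plus UNC0638 replicates 1 and 2 (adjusted p up to 0.109).

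Of the H3 genes, Hist2h3c2 read 104, 92, 128 and 98.4 in Sham, 452, 388, 310.1 and 283 in SNL and 129, 203 and 208 in SNL plus UNC0638. SNL libraries lay above all libraries of both other groups, and every SNL plus UNC0638 library lay above every Sham library. It rose 3.39-fold with ligation (log2 fold change 1.74, SE 0.20, adjusted p = 0.000114), was lower with UNC0638 than in SNL (log2 fold change -1.0, SE 0.21, adjusted p = 0.00636) and higher than in Sham (log2 fold change 0.74, SE 0.21, adjusted p = 0.0123). The last call was lost without SNL plus UNC0638 replicates 2 and 3 (adjusted p up to 0.0602), and with a term for the libraries set apart. Hist1h2ail rose with ligation too (24.5 ± 8.57 to 98.4 ± 50.2, log2 fold change 1.87, adjusted p = 0.00171). Of the H4 genes, Hist1h4m read 174, 108, 125 and 129 in Sham, 356, 325, 218 and 333 in SNL and 89.7, 130 and 161 in SNL plus UNC0638. SNL libraries again lay above all others, and SNL plus UNC0638 and Sham overlapped. It rose with ligation (log2 fold change 1.19, SE 0.22, adjusted p = 0.0011) and was lower with UNC0638 (log2 fold change -1.29, SE 0.24, adjusted p = 0.00318), at log2 fold change -0.09, adjusted p = 0.755 against Sham. Hist2h4 read 154, 168, 142 and 194 in Sham, 347, 315, 273 and 382 in SNL and 158, 198 and 212 in SNL plus UNC0638, again with SNL above all other libraries, and was called in the same directions (log2 fold change 0.99, adjusted p = 0.000359 with ligation, and log2 fold change -0.80, adjusted p = 0.00525 with UNC0638). Its call with UNC0638 was lost with a term for the libraries set apart. Hist1h4b rose with ligation (619.7 ± 109.7 to 1034 ± 214, log2 fold change 0.73, adjusted p = 0.00773).

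Of the H2A genes, Hist2h2ab read 188, 207, 229 and 178 in Sham, 485, 387, 319.9 and 319 in SNL and 157, 243 and 213 in SNL plus UNC0638. Its SNL libraries lay above all others (log2 fold change 0.90, SE 0.17, adjusted p = 0.00149 with ligation, and log2 fold change -0.89, SE 0.19, adjusted p = 0.00629 with UNC0638), and against Sham the UNC0638 group differed by 0.01. Hist1h2an read 34.8, 43.2, 40.5 and 46.9 in Sham, 216, 145, 101 and 149.6 in SNL and 37.7, 61.9 and 98 in SNL plus UNC0638. It rose with ligation (log2 fold change 1.82, SE 0.29, adjusted p = 0.000472) and was lower with UNC0638 (log2 fold change -1.26, SE 0.31, adjusted p = 0.0132), with no overlap between the ligated groups. The call with UNC0638 was lost with a replicate block and with a term for the libraries set apart. Hist1h2ak (lower with UNC0638, log2 fold change -1.18, adjusted p = 0.0221, not called without SNL replicates 1 and 2 and SNL plus UNC0638 replicate 1 (adjusted p up to 0.0863)) and Hist1h2af rose with ligation too (log2 fold changes 1.87 and 1.14), the last from under 10 in every Sham library, and its call was lost without SNL replicates 1 and 2 (adjusted p up to 0.080). Hist3h2a did not pass the test with ligation (log2 fold change 0.04, adjusted p = 0.871) or in the other comparisons, but was called lower with UNC0638 than in Sham without Sham replicate 3 (adjusted p down to 0.00362).

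Among H2B genes, Hist1h2bd read 39, 34.1, 43.6 and 56.1 in Sham, 282, 178, 132 and 158 in SNL and 65.5, 86.6 and 114 in SNL plus UNC0638, in the order Sham, SNL plus UNC0638, SNL with no overlap of neighbours. All 3 differences were called (log2 fold change 2.06, SE 0.26, adjusted p = 0.000151 with ligation, log2 fold change -1.05, adjusted p = 0.0172 with UNC0638 against SNL, and log2 fold change 1.01, adjusted p = 0.0102 against Sham). The second call was lost without SNL plus UNC0638 replicates 1 or 2 and the third without replicate 3 (adjusted p up to 0.0665 and 0.0551). Hist1h2bk read 25, 23.9, 34.3 and 41.5 in Sham, 186, 120, 96.9 and 114 in SNL and 38.6, 72.7 and 51.6 in SNL plus UNC0638. It rose with ligation (log2 fold change 2.01, SE 0.27, adjusted p = 0.000197) and was lower with UNC0638 (log2 fold change -1.24, SE 0.29, adjusted p = 0.0104), with SNL above all other libraries. Hist1h2bk lost the call with UNC0638 when a term for the libraries set apart was added. Its higher call against Sham (log2 fold change 0.77, adjusted p = 0.0437) was lost without Sham replicates 1 and 2, SNL replicates 2 and 4 and SNL plus UNC0638 replicates 2 and 3 (adjusted p up to 0.194). Hist1h2bl read 43.1, 35.2, 46.7 and 46.9 in Sham, 258, 183, 123 and 152 in SNL and 78.9, 113 and 138 in SNL plus UNC0638. Its ligated libraries were all above Sham (log2 fold change 1.99, adjusted p = 0.000134 with ligation, and log2 fold change 1.31, adjusted p = 0.00174 for SNL plus UNC0638 against Sham), and SNL plus UNC0638 against SNL was not called (log2 fold change -0.68, adjusted p = 0.0685).

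Hist1h2bo read 87.6, 69.3, 56.1 and 66.1 in Sham, 381, 277, 149 and 187 in SNL and 82.5, 144 and 170.3 in SNL plus UNC0638. SNL lay above Sham (log2 fold change 1.74, SE 0.30, adjusted p = 0.000749), and SNL plus UNC0638 replicate 1 fell within the Sham range. Its call against Sham (log2 fold change 0.87, adjusted p = 0.0414) was lost without Sham replicates 2, 3 and 4, SNL replicate 2 and SNL plus UNC0638 replicates 2 and 3 (adjusted p up to 0.169). That call was also lost with voom on estimated reads and with a replicate block. Hist1h2bh read 1477, 1561, 1275 and 1480.3 in Sham, 1773, 1729, 1328 and 1597 in SNL and 1299.6, 849 and 1142 in SNL plus UNC0638. It was not called with ligation (log2 fold change 0.14, adjusted p = 0.431) and was lower with UNC0638 than in SNL (log2 fold change -0.56, adjusted p = 0.0213) and than in Sham (log2 fold change -0.42, adjusted p = 0.0417). The first of those calls was lost without SNL replicates 1 and 2 and SNL plus UNC0638 replicate 2 (adjusted p up to 0.0913) and the second without Sham replicates 1, 2 and 4, SNL replicates 2 and 4 and SNL plus UNC0638 replicates 2 and 3 (adjusted p up to 0.208).

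Hist1h2aa and Hist1h2ba, the pair that shares the promoter given above, are known as histones of the male germ line. Hist1h2aa read 15.3, 14.8, 14 and 8.45 in Sham, 36.7, 27.9, 19.5 and 29.2 in SNL and 15.2, 10.8 and 7.74 in SNL plus UNC0638. Hist1h2ba read 4.17, 4.54, 1.56 and 6.15 in Sham, 48, 33.4, 9.76 and 26.4 in SNL and 7.18, 7.74 and 9.03 in SNL plus UNC0638, or 1 to 78 estimated reads per library. Both were highest in SNL, Hist1h2ba with SNL replicate 3 at 9.76 and thus close to the other groups. Hist1h2aa rose with ligation (log2 fold change 1.05, SE 0.30, adjusted p = 0.0141) and was lower with UNC0638 (log2 fold change -1.27, SE 0.33, adjusted p = 0.0158). Hist1h2ba was called in the same directions (log2 fold change 2.47, SE 0.47, adjusted p = 0.00133, and log2 fold change -1.57, SE 0.51, adjusted p = 0.0383). However, it was under 10 in every Sham and every SNL plus UNC0638 library, and was tested only through SNL libraries. It could be fitted in 8 of the 11 fits that left out 1 library, 4 of which kept the call with UNC0638. That call was lost without Sham replicate 1 and SNL plus UNC0638 replicates 1, 2 and 3 (adjusted p up to 0.0985). The Hist1h2aa call with UNC0638 was lost without SNL replicate 1 and SNL plus UNC0638 replicate 3 (adjusted p up to 0.0587).

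None of the Hist3 genes was called higher in a ligated group. Hist3h2ba read 109.9, 85.2, 93.5 and 149.9 in Sham, 88.4, 60.4, 56.3 and 83 in SNL and 45.7, 51.1 and 43.9 in SNL plus UNC0638. It was the 1 histone gene lower in SNL than in Sham (log2 fold change -0.59, SE 0.21, adjusted p = 0.0394), with ranges that overlapped. That call was lost without Sham replicates 1 and 4 and SNL replicates 2 and 3 (adjusted p up to 0.124), and with upper-quartile scaling of the libraries. In SNL plus UNC0638 all 3 libraries lay below all Sham and SNL libraries (log2 fold change -1.18, SE 0.23, adjusted p = 0.00166, against Sham, and log2 fold change -0.59, adjusted p = 0.0777, against SNL). Rnf187, the next gene to it in RefSeq's order, went from 6396 ± 339 in Sham to 4193 ± 241 in SNL and 3793 ± 608 with UNC0638 (log2 fold changes -0.61 and -0.77 against Sham). Hist3h2a read 582, 554, 341 and 579 in Sham, 632, 514, 412 and 531 in SNL and 386, 326 and 397 in SNL plus UNC0638, and Hist3h2bb, its partner across the shared promoter, 8.35, 14.8, 4.67 and 12.3 in Sham, 13.2, 8.15, 12 and 11.9 in SNL and 6.28, 4.64 and 12.9 in SNL plus UNC0638. The 3 groups overlapped for Hist3h2bb, and neither gene was called in any comparison with all libraries.

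**Figure D4:**
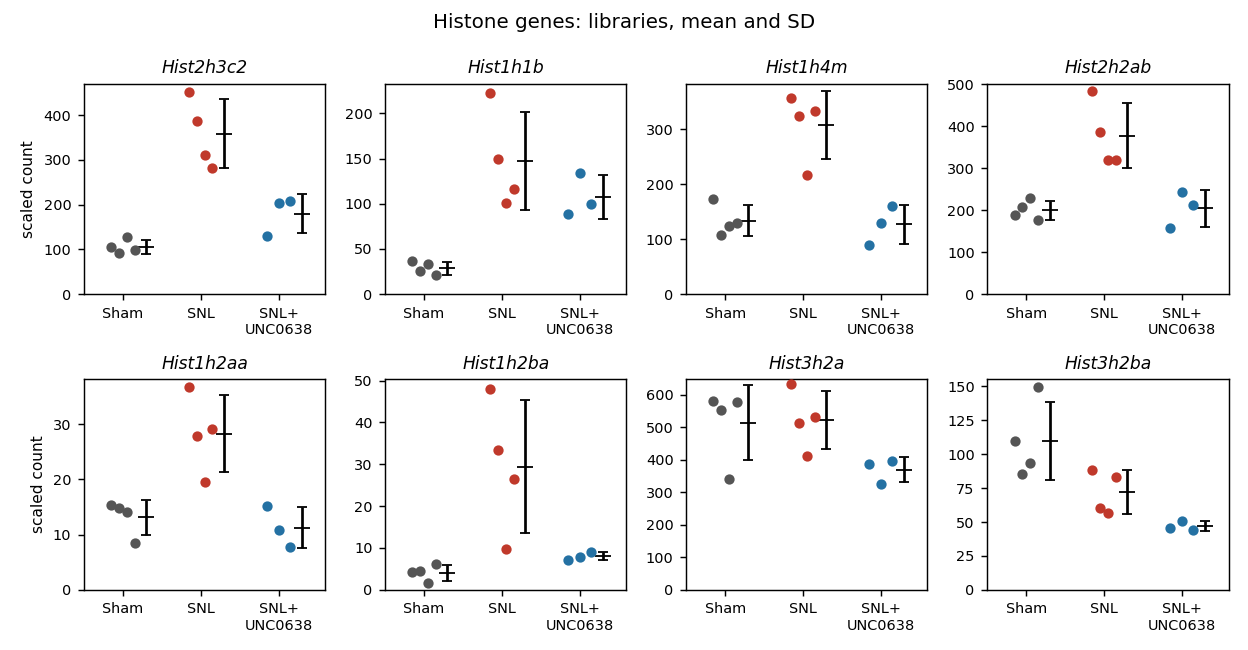
Scaled counts (vertical axes, from 0) of 8 histone genes in each library (points) by group, with mean and SD beside the points. Hist2h3c2, Hist1h4m and Hist2h2ab are highest in the 4 SNL libraries, Hist1h1b is above Sham in both ligated groups, and Hist3h2ba falls from Sham to SNL plus UNC0638.

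Genes that process histone messages or carry histones were described from a list of their own. Of 13 in the table, 3 rose and 1 fell with ligation, where 24.8% and 23.4% of all tested genes did. With UNC0638 against SNL 4 fell (14.3%) and the others were not called, and against Sham 2 rose and 2 fell (25.5% and 26%). Median log2 fold changes of the list were 0.09, -0.00 and -0.03 in the same order. Slbp, which binds the stem-loop of histone messages, fell from 539 ± 93.9 in Sham to 371 ± 32.3 in SNL (log2 fold change -0.53, SE 0.15, adjusted p = 0.0122) and stood at 264 ± 41.3 with UNC0638 (log2 fold change -0.50, SE 0.16, adjusted p = 0.038, against SNL). The chaperone gene Asf1b, which reached the value of 10 in SNL libraries only and was tested through them, rose with ligation from 5.97 ± 2.24 to 18.6 ± 9.29 (log2 fold change 1.40, adjusted p = 0.0272) and was at 5.75 ± 2.89 with UNC0638 (log2 fold change -1.46, adjusted p = 0.0496). Cpsf2, of the cleavage complex, rose (log2 fold change 0.39, adjusted p = 0.00991) and was lower with UNC0638 (log2 fold change -0.40, adjusted p = 0.0246), as was the exonuclease gene Eri1 (log2 fold change -0.44, adjusted p = 0.0443). The linker histone chaperone gene Nasp was higher than Sham in both ligated groups (log2 fold change 0.45, adjusted p = 0.0431 and log2 fold change 0.64, adjusted p = 0.0114), and Lsm10, a subunit of the particle that cuts histone messages, was higher with UNC0638 than in Sham (log2 fold change 0.78, adjusted p = 0.022).

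Replication-independent histone and related chromatin genes, whose messages carry poly(A) tails, were also examined. Of 9 tested (11 in the table), 4 rose with ligation (24.8% of all tested genes) and 5 fell with UNC0638 against SNL (14.3%), the others not being called, and 1 rose and 2 fell against Sham (25.5% and 26%). Median log2 fold changes of the list were 0.33, -0.61 and -0.19 in the same order. H3f3b, which encodes the variant H3.3, went from 2707 ± 401 to 5061 ± 1128 with ligation (log2 fold change 0.89, adjusted p = 0.00249) and to 2390.1 ± 488 with UNC0638 (log2 fold change -1.08, adjusted p = 0.00357, against SNL). The linker variant gene H1f0 rose with ligation (log2 fold change 0.89, adjusted p = 0.000546), as did Hmgn2, a nucleosome-binding protein gene (log2 fold change 0.69, adjusted p = 0.00114), and both were lower with UNC0638 (log2 fold change -0.61, adjusted p = 0.0149, and log2 fold change -0.95, adjusted p = 0.00114). H2afj and H2afy2 were lower with UNC0638 than in SNL (log2 fold change -0.83, adjusted p = 0.00788, and log2 fold change -0.79, adjusted p = 0.0271). Cenpa, the centromeric H3 variant, was under 10 in every Sham library, was tested only through ligated libraries, and was higher than Sham with UNC0638 (2.48 ± 2.67 and 10 ± 3.39, log2 fold change 1.95, adjusted p = 0.0208).

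Most markers of macrophages, T and NK cells and fibroblasts were called higher with ligation too. In bulk ganglia, fewer cells of a type and less RNA per cell cannot be told apart. Of 17 macrophage markers, 16 were called higher with ligation (24.8% of all tested genes), 2 with UNC0638 against SNL (13.5%) and 17 with UNC0638 against Sham (25.5%), and their summed scaled counts were 3828 to 7968 in Sham, 18017 to 33559 in SNL and 16882 to 31598 in SNL plus UNC0638. For T and NK cells, 12 of 14 tested markers were higher in the first of these comparisons, 4 higher and 1 lower in the second and 14 higher in the third, with sums of 204 to 508, 936 to 1362 and 808 to 1579. Of 10 fibroblast markers, 9 were higher with ligation, 4 lower with UNC0638 against SNL (14.3% of all tested genes) and 8 higher against Sham, with sums of 27353 to 40033, 100230 to 254030 and 47220 to 121290.

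Between the ligated groups the median log2 fold change of the markers was 0.19 for macrophages, 1.08 for T and NK cells, of which 12 of 14 had a value above 0, and -0.75 for fibroblasts. The macrophage and T and NK cell sums with UNC0638 overlapped those of SNL, whereas the summed scaled counts of the histone genes (3222 to 3947 in Sham, 4683 to 7752 in SNL and 3441 to 4107 in SNL plus UNC0638) did not overlap between the ligated groups. The cell cycle sums, 3285 to 3582, 6865 to 9577 and 3925 to 6198, did not overlap between them either, and the fibroblast sums did. Genes with high counts weigh most in a sum, and Ccnd1 had the highest counts of the cell cycle genes. Without Ccnd1 the cell cycle sum of SNL replicate 3 lay below that of SNL plus UNC0638 replicate 3. The cell cycle genes' median log2 difference from the Sham mean was 1.22 to 1.71 per SNL library. It was 0.39 to 1.06 per SNL plus UNC0638 library. Replicate 1 was the lowest SNL plus UNC0638 library for both sets and for the macrophage, T and NK cell and fibroblast sums. With ligation, in which 24.8% of all tested genes were higher and 23.4% lower, 6 of 8 tested endothelial markers were higher, of 9 satellite glia markers 3 were higher and 4 lower, of 10 Schwann cell and myelin markers 4 were higher and 1 lower, and 12 of 13 sensory neuron markers were lower. No marker of these lists in the table was at 0 in all libraries except the endothelial Cldn5. Defining neuronal markers were present in all groups, with sums of 329290 to 380020 in Sham and 108920 to 208640 in the ligated libraries. The part of these cell types in the results for cell cycle and histone genes was not tested.

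**Figure D5:**
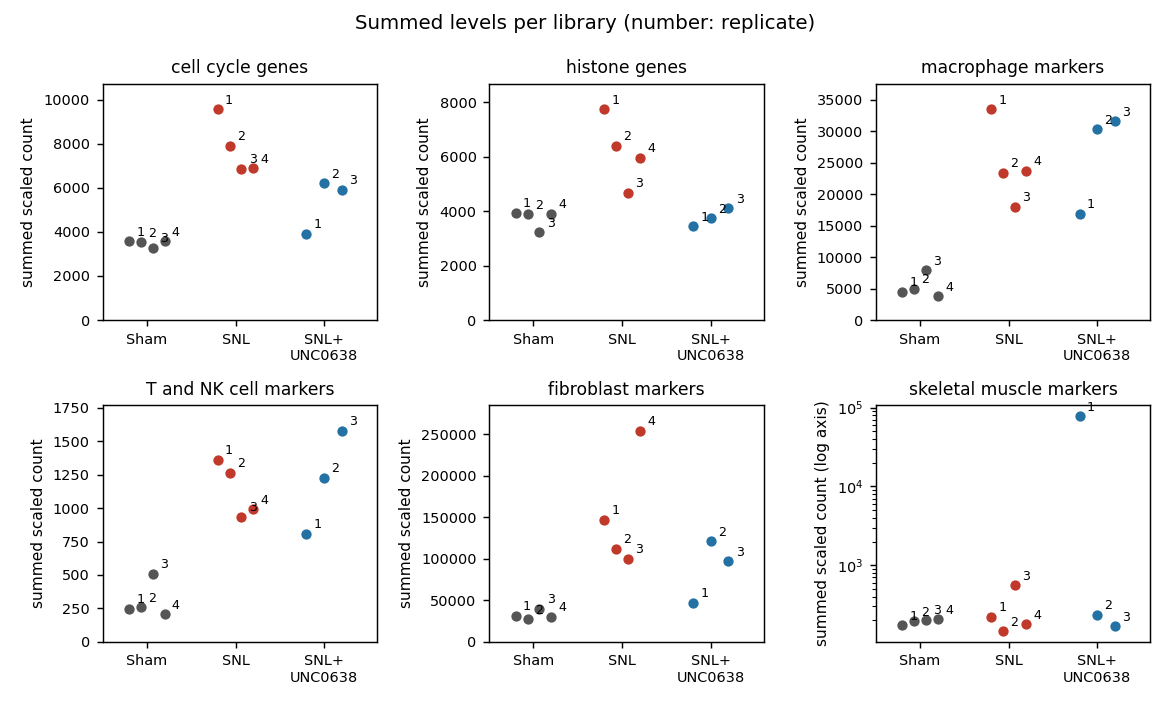
Summed scaled counts of the cell cycle genes, the histone genes and 4 lists of cell type markers in each library (points, with the replicate number), by group, with a log axis for the skeletal muscle markers. The histone sums of the 3 SNL plus UNC0638 libraries (3441 to 4107) lie below all SNL sums (4683 to 7752), the macrophage sums of these groups overlap, and SNL plus UNC0638 replicate 1 alone is high in muscle markers at 78133.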

How the data were processed

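RNA sequencing of rat dorsal root ganglia (4 Sham, 4 SNL and 3 SNL plus UNC0638 libraries) was analysed from 1 deposited table of gene values. Its values are a signal per gene, which the authors had scaled by library before they were deposited: in each library, 98.9% to 99.3% of values up to 60 were whole multiples of 1 step, to within 0.01 steps, so that they are taken as counts scaled by 1 factor a library. Per the labels' protocols, total RNA was depleted of ribosomal RNA, stranded libraries were read as 50 base single ends, and RNA was extracted with either of 2 reagents, with no record of which library had which. Per the submitters' processing notes, the build was rn4 and the tools included TopHat2 2.0.9 and Cuffdiff 2.1.1. Use of strand in the counting was not given in the sources used here.

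From these values, limma 3.58.1 (R 4.3.3, eBayes with trend and robust settings, statmod 1.5.0) was fitted to log2(value + 1) over 11 libraries with 3 group means, for the 12085 genes that reached a value of 10 in 3 libraries or more. Calls needed a Benjamini-Hochberg adjusted p under 0.05 over all of them, two-sided. The fit was tested on simulated data. Of the rows, 24 had names altered to dates and were kept under those names, while Sdc2 and Pcdhgc5, each listed at 0 in every library of 1 group and at no other, were dropped once their values had been seen. Sampling error at low values is set by the reads behind them, 3 reads being worth 1.29 to 4.67 scaled counts.

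Members and lists were chosen with earlier results of these data known. Values in every library are given for the 6 called members with the smallest p per set and comparison, and for Mki67, Top2a, Pcna, Ccnd1 and Cdkn1a. From each pathway list the 3 called genes with the smallest p per comparison are named, except for results that are not reported here. Ccne1, E2f1, Foxm1, Hist1h2aa, Hist1h2ba, Hist1h2bh, Hist3h2a and Hist3h2bb are given in the same detail but were chosen after their values were seen. Grouping of histones by protein length was planned and not done, since no protein sequences were used here. Alternatives were other scalings, filters and pseudocounts, voom on estimated reads, a replicate block, a term for libraries set apart and fits without single libraries.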

Additional observations from a re-analysis of the deposited data

Results flagged for a closer look

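In 4 of 114 groups of 4 libraries tested, 1 library lay far from the other 3 by Dixon's criterion, which chance alone meets in about 1 of 20 groups. Ccne1 in Sham replicate 4 read 149.104 scaled counts, against 115.88 to 121.539 in the other Sham libraries, and the fall of Ccne1 with ligation was not called without that library. Sham replicate 3 was the library set apart in the other cases. Pcna read 288.265 there, against 455 to 464.6. Cdt1 read 29.6056, against 9.09 to 10.76. Hist3h2a read 341.243, against 554.4 to 581.5.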

How the results depend on the processing

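Upper-quartile scaling, leaving out both replicates 3 of Sham and SNL, and fitting only the 2 groups compared each gave 0 histone genes lower with ligation. With UNC0638 against SNL, lower calls for cell cycle and histone genes numbered 5 and 8 with a replicate block, 2 and 3 with a term setting apart Sham replicate 3, SNL replicate 3 and the SNL plus UNC0638 libraries, and 15 and 20 without both replicates 3. Lower calls over all tested genes moved the same way. They numbered 1726 in the main fit, 1071 with the block, 646 with the term and 2553 without both replicates 3. Calls lost with the term included those of Cdc20, Prc1, Nusap1, Tyms, Pcna, Cdkn1a, Hist2h4, Hist1h2bk and Hist1h2an. The block lost among others those of Nusap1, Tyms, Pcna and Hist1h2an. Against Sham, cell cycle genes called lower with UNC0638 numbered 1 with the block and 0 with the term, histone genes called higher 4 with voom and 4 with the block, and histone genes called lower 1 with upper-quartile scaling, the block, the term or only 2 groups. Among all tested genes, the last 4 settings gave 2681 to 2886 lower calls against Sham, beside 3137 in the main fit. Higher calls numbered 2961 with voom and 2756 with the block, beside 3083. Leaving out 1 library at a time gave, for cell cycle genes, 23 to 26 higher and 0 to 2 lower with ligation, 1 higher and 2 to 11 lower with UNC0638 against SNL, and 11 to 21 higher and 1 to 2 lower against Sham. For histone genes it gave 15 to 18 and 0 to 1, 0 and 8 to 20, and 2 to 8 and 1 to 3. For all tested genes it gave 2511 to 3346 higher with ligation and 1030 to 2255 lower with UNC0638 against SNL. Against Sham it gave 2262 to 3503 higher. Mki67, SNL plus UNC0638 against SNL, changed sign in such fits, from -0.2756 to 0.1492 (log2), at 0.0156 without SNL replicate 1 and 0.0142 without SNL replicate 2. Pcna, SNL plus UNC0638 against Sham, stood at -0.24 with all libraries, 0.1985 with the term and -0.41 (called lower, limma adjusted p = 0.0384) without both replicates 3. The cause was not tested. Samples sharing a replicate number correlated at 0.00452 to 0.431 between Sham and SNL and at -0.446 to 0.0113 for pairs with UNC0638, and not every library correlated best with its own number, so the numbers were not taken to pair samples. The 2 count tests planned on estimated reads were not run, because the deposited values are scaled.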
